A study of Mus musculus with 12 samples.

Results

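Calcium that drives each heartbeat is stored in the sarcoplasmic reticulum, and the transcripts described here encode its release and uptake machinery: Atp2a2, Pln, Sln, Ryr2, Casq1, Casq2, Trdn, Jph2, Hrc and Fkbp1b. These 10 genes were taken from a list of calcium handling and dyad genes and make up 10 of the 20775 genes listed by symbol in both expression tables. RNA-seq compared E10.5 embryonic hearts and adult cardiomyocytes with and without Med30, a subunit of the Mediator complex that links transcription factors to RNA polymerase II. The E10.5 knockout (cKO, 3 samples) was Med30 f/f on C57BL/6 with Tnnt-Cre, in which the troponin T promoter drives Cre in cardiomyocytes, and its controls (Ctrl, 3 samples) were littermates lacking Cre. Adult cardiomyocytes were isolated at 3 months, and the labels place both adult groups at 4 weeks after tamoxifen. The icKO cells (n = 3) came from C57BL/6 Med30 f/f mice with αMHC-MerCreMer, a cardiomyocyte-restricted and tamoxifen-dependent Cre. The adult Ctrl cells (n = 3) came from C57BL/6 Med30 f/f animals lacking Cre. The deposited labels name both control groups wild type and give heart as the source at both ages. Since Cre was present in the knockouts alone, its own effect cannot be told apart from that of losing Med30. Nothing in the sources used here says which samples share a litter or were pooled. The p values set each difference against the spread between these samples.

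In a working cardiomyocyte, calcium entering through the surface membrane opens the ryanodine receptor Ryr2, the release channel of the sarcoplasmic reticulum, and the released calcium starts contraction. The pump Atp2a2 (SERCA2) returns calcium to the store, restrained by the small membrane protein phospholamban (Pln) and, chiefly in atria and skeletal muscle, by sarcolipin (Sln). Inside the store, the calsequestrins Casq2 (cardiac) and Casq1 (the main form of skeletal muscle) and the histidine-rich protein Hrc bind calcium, triadin (Trdn) ties calsequestrin to the release channel, junctophilin Jph2 holds the store next to the surface membrane in the dyad, and Fkbp1b (FKBP12.6) binds Ryr2.

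Values are RPKM, a read count divided by gene length and by library size, as deposited. The spacing of the lowest values corresponds to 13.7 to 20.03 M reads per sample at E10.5 and to 11.99 to 17.6 M at 4 weeks. Each stage was fitted with limma on log2(RPKM + 0.1), keeping genes whose RPKM averaged above 1 in that table, and a call needed both a log2 fold change beyond 1 and a Benjamini-Hochberg adjusted p under 0.05. This scale understates the change of low genes. Over the whole set of tested genes the median was −0.13 at E10.5 and 0.57 at 4 weeks, so changes are also given relative to that median. The 20 most abundant genes held 24.8 to 25.4% of the summed RPKM in adult Ctrl and 11.5 to 13.1% in icKO. Scaling by the median ratio between samples moved the medians to −0.01 and 0.01, and the share of called genes that were higher moved from 30.6% to 46.1% at E10.5 and from 76.8% to 41.1% at 4 weeks.

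Med30 RPKM was 10.6, 13.3 and 11.3 in E10.5 Ctrl and 1.38, 2.02 and 1.004 in cKO (log2 fold change −2.96, SE 0.225, adjusted p = 0.000367, limma). In adult cardiomyocytes it was 7.66, 7.45 and 7.66 in Ctrl and 3.81, 3.16 and 1.82 in icKO (−1.40, SE 0.229, adjusted p = 0.000403). The groups were separate at both stages, in the direction of the labels, and the values count the whole gene and not the floxed first exon alone. Cardiomyocyte markers (Tnnt2, Tnni3, Myh6, Actc1, Actn2, Ttn, Nkx2-5 and Myl3) were present in all groups. Their summed RPKM was 4423 to 5792 in E10.5 Ctrl, 3598 to 4286 in cKO, 19996 to 21171 in adult Ctrl and 7888 to 9751 in icKO. In bulk RNA, fewer cardiomyocytes and less of these transcripts per cardiomyocyte cannot be told apart.

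The genes lie on GRCm38 (GENCODE M21) at chr5:122453513-122502225 (Atp2a2, minus strand), chr10:53337667-53345987 (Pln, plus), chr9:53850164-53854560 (Sln, plus), chr13:11553102-12106945 (Ryr2, minus), chr1:172209894-172219868 (Casq1, minus), chr3:102086415-102146514 (Casq2, plus), chr10:33080554-33476709 (Trdn, plus), chr2:163336242-163397993 (Jph2, minus), chr7:45335290-45338974 (Hrc, plus) and chr12:4833174-4841591 (Fkbp1b, minus). Pln overlaps Cep85l and Gm47644, and Casq1 overlaps Gm17224, on the other strand. Atp2a2 (Gm43359, Gm43360), Ryr2 (Gm47493, Gm47494), Casq2 (4632404M16Rik, Gm43244) and Trdn (Gm20304, Gm29884, Gm47831, Gm47845) overlap annotated genes on their own strand, and Atp2a2, Ryr2 and Trdn also some on the other strand. Whether counting used strand is not given in the sources used here. Reads may be shared with own-strand neighbours under any setting, and with the others if strand was not used. RefSeq promoter windows on GRCm38.p6 were matched for 7 of the 10 genes. The 250 bases before the start are printed for Pln, Ryr2 and Hrc, which were called lower together in adult icKO cardiomyocytes, and for Casq2, which was not. The start is the one used for these windows. For Pln it lies inside the gene coordinates given above, and for Hrc it lies before them. Capitals mark matches to a TATA box (TATAAA) or a GATA motif (AGATAA) on either strand, and each sequence runs 5′ to 3′ on the strand of its gene.
Pln, chr10:53337436-53337685, plus strand: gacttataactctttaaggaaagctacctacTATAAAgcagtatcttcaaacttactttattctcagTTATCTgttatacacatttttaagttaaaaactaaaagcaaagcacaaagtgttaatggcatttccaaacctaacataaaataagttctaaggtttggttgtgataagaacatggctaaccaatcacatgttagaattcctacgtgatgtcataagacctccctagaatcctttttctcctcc
Ryr2, chr13:12106946-12107195, minus strand: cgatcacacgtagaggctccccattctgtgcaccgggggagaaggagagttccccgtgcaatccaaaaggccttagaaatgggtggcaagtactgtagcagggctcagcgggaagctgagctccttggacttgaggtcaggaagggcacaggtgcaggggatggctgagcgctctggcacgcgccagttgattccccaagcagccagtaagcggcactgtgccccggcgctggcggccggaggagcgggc
Hrc, chr7:45335019-45335268, plus strand: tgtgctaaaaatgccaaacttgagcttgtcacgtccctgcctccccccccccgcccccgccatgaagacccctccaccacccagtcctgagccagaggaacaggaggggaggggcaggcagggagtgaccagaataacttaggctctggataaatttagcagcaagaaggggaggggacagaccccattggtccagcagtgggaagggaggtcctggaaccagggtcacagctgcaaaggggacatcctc
Casq2, chr3:102086165-102086414, plus strand: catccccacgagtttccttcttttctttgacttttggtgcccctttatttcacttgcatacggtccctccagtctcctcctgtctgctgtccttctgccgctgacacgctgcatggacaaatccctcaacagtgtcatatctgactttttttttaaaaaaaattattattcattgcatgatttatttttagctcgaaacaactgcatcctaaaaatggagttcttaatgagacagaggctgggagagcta
The Pln window holds a TATAAA match at 219 to 214 bases before the start and a reverse-strand AGATAA match at 183 to 178 bases before it. Among all 32536 distinct windows of this length, 12.3% hold TATAAA and 9.97% hold AGATAA. No window of the 7 genes holds CATTCC (MCAT, in 12.6% of all windows) or TNAAGTG (an NKX2-5 motif, 10.01%). The Pln and Casq2 windows have 32.8% and 41.6% G and C, against 63.2% for Ryr2 and 59.6% for Hrc. A match describes the letters of the window only.

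In adult cardiomyocytes the pump, its inhibitor and the release channel were all far lower after loss of Med30. Atp2a2 fell 7.91-fold, Pln 23.5-fold, Ryr2 7.14-fold and the luminal calcium-binding gene Hrc 3.69-fold. With RPKM as deposited, the group mean of Casq2 was 33.7% higher and that of Jph2 11.1% lower. These 2 depend on the scaling, with log2 values of −0.14 for Casq2 and −0.73 for Jph2 under the median ratio. Of the 10 genes, 8 passed the RPKM filter at 4 weeks, 4 were called lower and 0 higher. Among all 9517 genes tested, 8.45% were called lower and 28.0% higher. Under median-ratio scaling 5 of the 8 were called lower and 0 higher, against 15.9% and 11.1% of all genes tested. By adjusted p alone, at any fold, 6 of the 8 passed, against 78.7% of all genes tested. In 6 of the 8 every icKO sample lay below every Ctrl sample (18.9% of all genes tested), and in 1 every icKO sample lay above (62.0%).

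**Figure D1:**
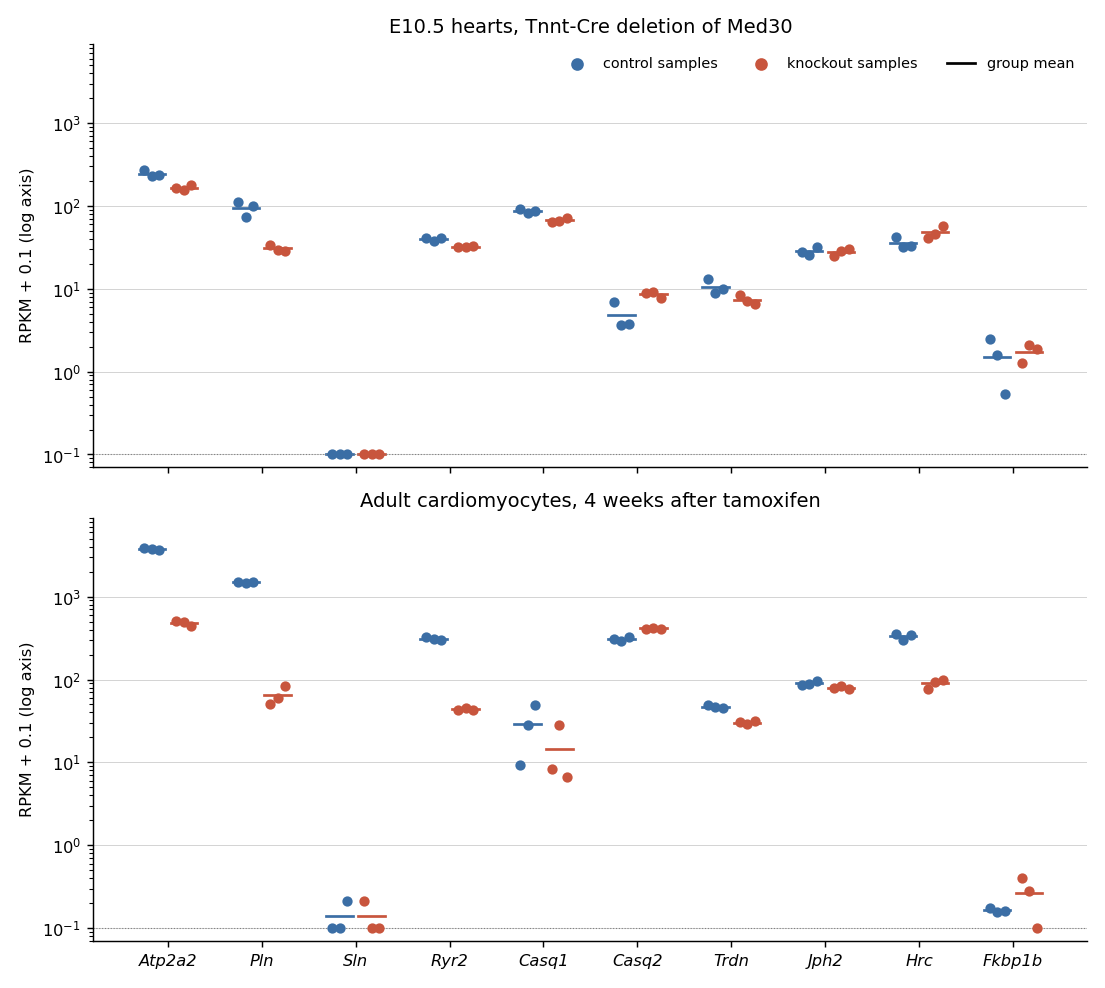
RPKM + 0.1 of the 10 genes in each sample on a log axis, at E10.5 (top) and 4 weeks after tamoxifen (bottom). Points are samples, blue for Ctrl and red for knockout, bars are group means (n = 3), and the dotted line is an RPKM of 0. At 4 weeks the icKO points of Atp2a2, Pln, Ryr2 and Hrc sit far below the Ctrl points, and those of Casq2 sit slightly above.

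Atp2a2 RPKM was 3842, 3798 and 3705 in adult Ctrl and 502, 498 and 437 in icKO (log2 fold change −2.98, SE 0.0814, adjusted p = 8.11e-08, limma). The groups were widely separate and the samples of each were close together. The gene was the 6th most abundant of the table in each Ctrl sample and ranked 35, 41 and 48 in the icKO samples. Pln, the inhibitor of the pump, was at 1486, 1472 and 1494 in Ctrl and at 50.3, 59.9 and 82.8 in icKO (−4.56, SE 0.156, adjusted p = 1.34e-07). It had the largest log2 fold change of the 8 genes tested. The ratio of Atp2a2 to Pln RPKM, a description of the same values, was 2.48 to 2.59 in Ctrl and 5.28 to 9.97 in icKO. Sln, the other pump inhibitor of the list, was at 0, 0 and 0.114 in Ctrl and at 0.114, 0 and 0 in icKO. These values correspond to under 3 reads in each sample, and no fold change is given.

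Ryr2 RPKM was 325, 312 and 299 in Ctrl and 43.1, 45.1 and 42.7 in icKO (−2.84, SE 0.0699, adjusted p = 8.11e-08). The release channel and the pump kept similar proportions, with an Atp2a2 to Ryr2 ratio of 11.8 to 12.4 in Ctrl and 10.2 to 11.6 in icKO. Fkbp1b, which encodes the Ryr2-binding FKBP12.6, was at 0.077, 0.058 and 0.060 in Ctrl and at 0.302, 0.183 and 0 in icKO. It lay near the floor of 3 reads in all 6 samples and was not tested. Its relative Fkbp1a (FKBP12), which also binds ryanodine receptors, was at 35.1, 37.7 and 38.0 in Ctrl and at 79.2, 78.9 and 69.9 in icKO (log2 fold change 1.04, SE 0.0809, adjusted p = 4.32e-06). Under median-ratio scaling that value was 0.47 and no longer called. The ratio of Fkbp1a to Ryr2 RPKM was 0.108 to 0.127 in Ctrl and 1.64 to 1.84 in icKO.

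Of the proteins inside the store, Hrc fell and Casq2 did not. Hrc RPKM was 353, 299 and 343 in Ctrl and 77.8, 94.5 and 97.5 in icKO (−1.89, SE 0.106, adjusted p = 8.47e-07). Casq2, the cardiac calsequestrin, was at 310, 290 and 328 in Ctrl and at 410, 423 and 409 in icKO. All icKO samples were above all Ctrl samples, with a log2 fold change of 0.42 (SE 0.0737, adjusted p = 0.000633) that did not reach the fold required for a call. Relative to the median of all genes it was −0.15, and under median-ratio scaling it was −0.14 (adjusted p = 0.119), so its direction depends on the scaling. Casq1 varied most, at 9.14, 28.4 and 49.6 in Ctrl and 8.13, 28.2 and 6.65 in icKO. Its groups overlapped (−1.02, SE 0.655, adjusted p = 0.179). Without Ctrl replicate 1 the value was −1.70 (adjusted p = 0.0152) and without icKO replicate 2 it was −1.66 (adjusted p = 0.0320), and in both cases Casq1 was called lower.

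The genes of the junction, Trdn and Jph2, were not called. Trdn RPKM was 48.6, 46.8 and 45.1 in Ctrl and 30.2, 29.1 and 31.2 in icKO, with every icKO sample lower (−0.63, SE 0.0737, adjusted p = 4.82e-05). This was short of the fold required for a call, but the value was −1.20 under median-ratio scaling and −1.09 under quantile normalization, and Trdn was called lower under both. Jph2 was at 85.1, 87.4 and 96.5 in Ctrl and at 78.7, 82.9 and 77.5 in icKO. These groups did not overlap but were close (−0.17, SE 0.0772, adjusted p = 0.0714), and the value under median-ratio scaling was −0.73.

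**Figure D2:**
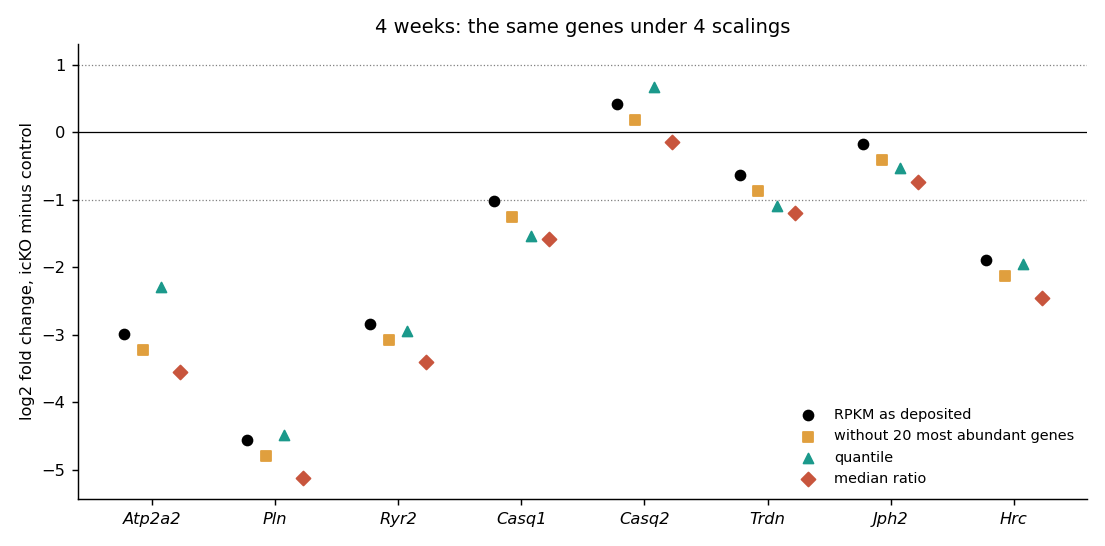
Log2 fold change at 4 weeks (icKO minus Ctrl) for the 8 genes tested, with RPKM as deposited and under 3 other scalings. Dotted lines mark the fold required for a call. Atp2a2, Pln, Ryr2 and Hrc lie below −1 under each scaling, Trdn crosses −1, and Casq2 falls below 0 under the median ratio.

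The RPKM of the 10 genes together summed to 6333 to 6459 in adult Ctrl and 1185 to 1261 in icKO. Atp2a2 made up 58.2 to 60.0% of that sum in Ctrl and 36.9 to 41.8% in icKO. Fibroblast markers moved at the same time. All 7 fibroblast markers (Col1a1, Col1a2, Col3a1, Pdgfra, Dcn, Lum and Tcf21) were higher in each icKO sample than in each Ctrl sample, with a summed RPKM of 4.78 to 8.04 in Ctrl and 35.4 to 61.3 in icKO. The 6 endothelial markers summed to 7.68 to 21.3 in Ctrl and 20.3 to 34.1 in icKO, which overlap, and 2 of the 6 were higher in each icKO sample than in each Ctrl sample. Of the 8 cardiomyocyte markers, 6 were lower and 2 higher in each icKO sample than in each Ctrl sample. Among all genes tested, 62.0% were higher and 18.9% lower in each icKO sample than in each Ctrl sample. The part of these marker shifts in the fall of Atp2a2, Pln, Ryr2 and Hrc was not tested.

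At E10.5 Atp2a2, Pln, Ryr2 and Hrc differed less than at 4 weeks, and Pln was the only one of the 10 genes called. Of the 10 genes 9 passed the filter, 1 was called lower (0.542% of the 10885 genes tested were) and 0 higher (0.239%). By adjusted p alone 1 passed, against 4.32% of all genes tested. At an unadjusted p under 0.05, 5 were lower and 2 higher, against 19.2% and 4.39% of all genes tested. The cKO samples were all below the Ctrl samples for 5 of the 9 (22.6% of all genes tested) and above for 1 (6.50%).

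Pln RPKM was 110, 73.9 and 100 in E10.5 Ctrl and 33.9, 29.6 and 28.1 in cKO (log2 fold change −1.61, SE 0.159, adjusted p = 0.00173, limma), with a wide gap between the groups. Atp2a2 was at 269, 227 and 236 in Ctrl and at 163, 156 and 178 in cKO. The groups were separate, but the value did not pass the test (−0.56, SE 0.1403, adjusted p = 0.0553). Scaled by the median ratio it was −0.43 (adjusted p = 0.0295), short of the fold required for a call. Under quantile normalization it was −0.28 (adjusted p = 0.0987). The Atp2a2 to Pln ratio was 2.36 to 3.08 in Ctrl and 4.81 to 6.34 in cKO. Sln was listed at 0 in all 6 samples. Ryr2 was at 41.1, 38.1 and 40.8 in Ctrl and at 31.5, 31.5 and 33.0 in cKO (−0.32, SE 0.101, adjusted p = 0.0961), again without overlap and short of the threshold.

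The calsequestrins differed in sign at E10.5. Casq1 was the more abundant form, at 92.7, 83.1 and 87.6 RPKM in Ctrl and 64.5, 65.8 and 72.0 in cKO (−0.38, SE 0.114, adjusted p = 0.0841). Casq2 was at 6.82, 3.57 and 3.64 in Ctrl and at 8.70, 8.95 and 7.66 in cKO (0.90, SE 0.227, adjusted p = 0.0551). The cKO samples lay above the Ctrl samples, among which replicate 1 stood apart. Without Ctrl replicate 1 the Casq2 value was 1.20 (adjusted p = 0.0147), and under median-ratio scaling it was 1.02 (adjusted p = 0.0280), and Casq2 was then called higher. The ratio of Casq1 to Casq2 RPKM was 13.6 to 24.1 in Ctrl and 7.35 to 9.40 in cKO. In adult samples the same ratio was 0.0163 to 0.151. Skeletal muscle markers, of which Casq1 is not one, summed to 4.51 to 8.65 in E10.5 Ctrl and 2.95 to 7.91 in cKO, and to 0.253 to 0.449 in adult Ctrl and 6.55 to 9.40 in icKO. Most of the icKO sum is Tnnt3, a fast troponin T gene named after its values were seen, at 9.33, 7.88 and 6.45 RPKM, while Myh2, Myh4 and Myod1 were at 0 in all icKO samples.

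Hrc RPKM was 41.5, 32.0 and 32.5 in E10.5 Ctrl and 41.0, 45.5 and 57.4 in cKO, with overlapping groups (0.44, SE 0.155, adjusted p = 0.132). The Hrc value was 0.56 under median-ratio scaling (adjusted p = 0.0296, limma) and 0.61 under quantile normalization (adjusted p = 0.0152). Without the 20 most abundant genes it was 0.61 (adjusted p = 0.0119), and none of these reached the fold required for a call. Trdn was at 13.0, 8.86 and 9.73 in Ctrl and at 8.38, 6.98 and 6.42 in cKO (−0.52, SE 0.164, adjusted p = 0.0977). Jph2 did not separate the groups (25.6 to 31.6 in Ctrl and 25.0 to 29.7 in cKO, log2 fold change −0.03, SE 0.121, adjusted p = 0.914). Fkbp1b was low and variable, at 2.34, 1.48 and 0.443 in Ctrl and 1.16, 1.97 and 1.78 in cKO (0.41, SE 0.491, adjusted p = 0.648). Erythroid markers ranged from 257 to 813 summed RPKM in Ctrl and from 362 to 2199 in cKO, and their part in these values was not tested.

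**Figure D3:**
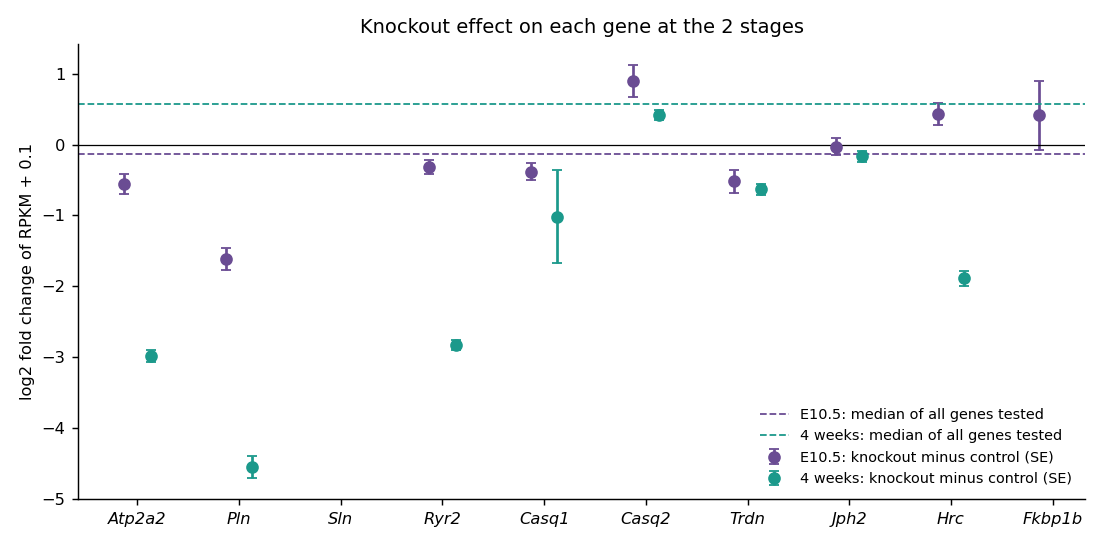
Log2 fold change (knockout minus Ctrl, error bars SE, n = 3 against 3) of each gene at E10.5 (purple) and at 4 weeks (green), with dashed lines at the median of all genes tested at that stage. Atp2a2, Pln, Ryr2 and Hrc lie far lower at 4 weeks than at E10.5. Sln was tested at neither stage and Fkbp1b at E10.5 alone.

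The difference between the effects of the 2 knockouts was tested as a contrast of all 12 samples (4 weeks minus E10.5), over the 8909 genes tested at both stages. Stage, tissue preparation, Cre driver and time since deletion differ together and cannot be told apart. Of the 8 calcium handling genes tested at both stages, 4 had a more negative effect at 4 weeks and 0 a more positive one, against 5.03% and 34.3% of all genes tested. Under median-ratio scaling 5 were more negative, Casq2 being the added one, and the shares of all genes tested were 13.2% and 9.84%. The difference was −2.43 for Atp2a2 (SE 0.162, adjusted p = 1.15e-07, limma), −2.94 for Pln (SE 0.247, adjusted p = 5.40e-07), −2.51 for Ryr2 (SE 0.115, adjusted p = 1.46e-08) and −2.32 for Hrc (SE 0.205, adjusted p = 8.23e-07). Hrc had a log2 value of 0.44 at E10.5, not past the test with RPKM as deposited, and −1.89 at 4 weeks. For Casq2 (−0.48, SE 0.263), Casq1 (−0.64, SE 0.754), Trdn (−0.11, SE 0.190) and Jph2 (−0.14, SE 0.146) the difference did not pass the test (adjusted p = 0.119, 0.462, 0.603 and 0.404) with RPKM as deposited, where the median difference over all genes tested was 0.69. These values depend on the scaling: under the median ratio, with a median of 0.0041 over all genes, they were −1.18 for Casq2 (adjusted p = 0.000906, called), −0.82 for Trdn (adjusted p = 0.00145) and −0.84 for Jph2 (adjusted p = 0.000174). Without E10.5 Ctrl replicate 1, Casq2 was at −0.78 (adjusted p = 0.000177).

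Ryr2 and Atp2a2 had closely similar profiles. Over the 12 samples, after centring log2(RPKM + 0.1) on the gene's mean within each table, their root mean square distance was 0.116. This centring keeps the difference between Ctrl and knockout, so genes with similar fold changes lie near each other. The distance therefore restates the fold changes given above. Among the 8901 other genes, the nearest to Ryr2 were Acaa2, a thiolase of mitochondrial fatty acid oxidation (0.134), Crip2, a LIM domain protein (0.142), and Ednra, the endothelin A receptor (0.148). The same 3 genes were nearest to Atp2a2, with Crip2 at 0.160, Acaa2 at 0.167 and Ednra at 0.169. At 4 weeks the mean RPKM was 376 in Ctrl and 55.7 in icKO for Acaa2, 493 and 64.3 for Crip2 and 13.7 and 1.43 for Ednra.

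Other genes of calcium store handling, a list of 42 of which 41 are in the tables, did not share one direction. At E10.5, 32 were tested with limma and 0 were called in either direction. At an unadjusted p under 0.05, 1 was lower and 2 were higher, beside the 19.2% and 4.39% of all genes given above, and the median was −0.16 beside −0.13 for all genes. At 4 weeks, 31 were tested, 8 were called lower and 7 higher (8.45% and 28.0% of all genes tested), and the median was 0.21 beside 0.57 for all genes. Under median-ratio scaling the counts at 4 weeks were 8 lower and 3 higher (15.9% and 11.1% of all genes tested). Among the called genes Bin1, Camk2b and Stim1 had a mean RPKM under 1 in one group and passed the filter through the other. All these counts at 4 weeks include them, so the counts only describe the list. With genes kept above a mean RPKM of 5, where these 3 and Itpr2 were not tested, 5 were lower and 6 higher.

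**Figure D4:**
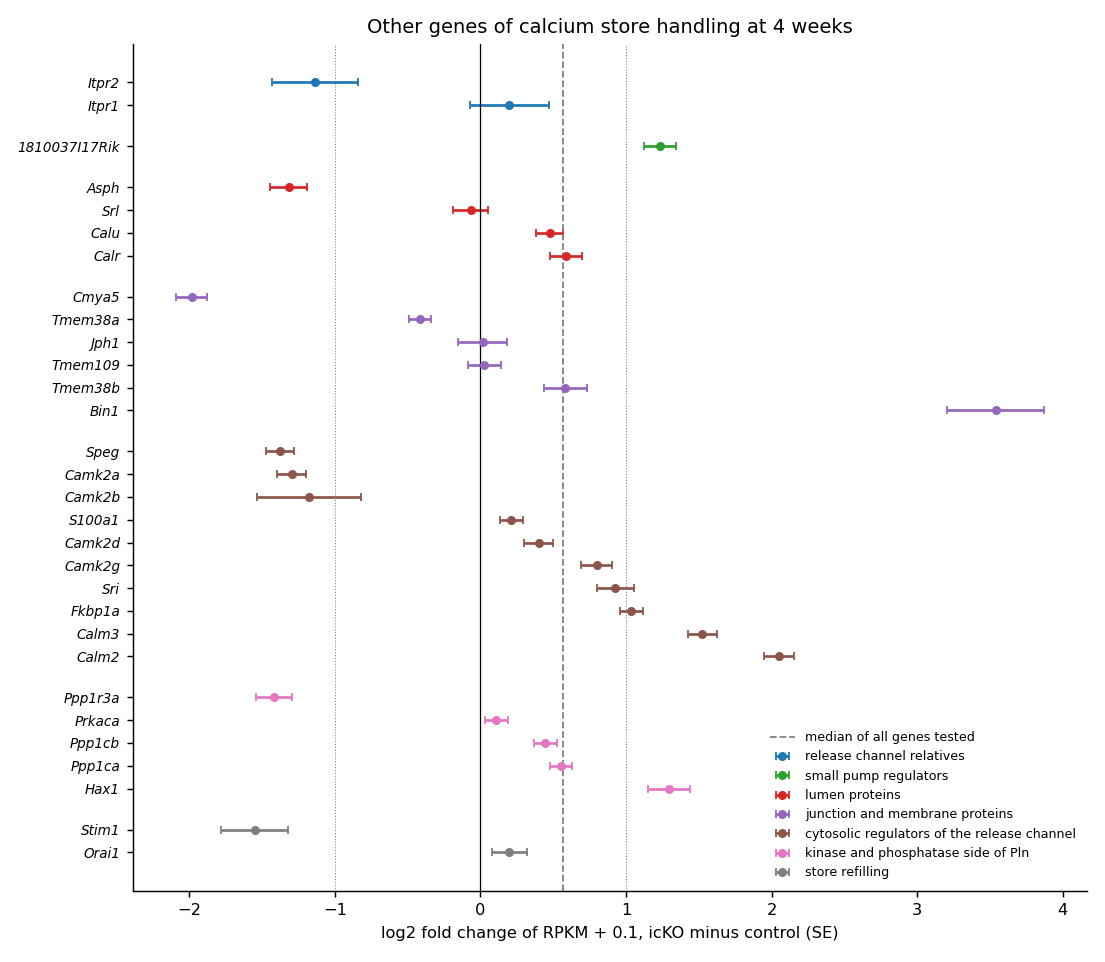
Log2 fold change at 4 weeks (icKO minus Ctrl, error bars SE, n = 3 against 3) of 30 of the 31 tested genes, coloured by role. The dashed line is the median of all genes tested and dotted lines mark the fold required for a call. Calm2 and Calm3 lie to the right, and Cmya5, Ppp1r3a, Speg and Asph to the left. Bin1, far right, passed the RPKM filter through the icKO samples alone. Stim1 and Camk2b, to the left, passed it through the Ctrl samples.

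Among relatives of the release channel, 2 of 5 were tested at 4 weeks. The inositol trisphosphate receptor Itpr2 was lower (−1.13, SE 0.296, adjusted p = 0.00642), with 1.60, 2.73 and 3.11 RPKM in Ctrl and 0.828, 0.876 and 1.52 in icKO. With a pseudocount of 1 its value was −0.74 and it was not called. Ryr1 and Ryr3, the other ryanodine receptors, were below 0.2 RPKM in each adult sample, and Ryr3 was at 0.661 to 1.26 at E10.5. The pump relatives Atp2a1 and Atp2a3 were below 1 RPKM in all 12 samples and were not tested. The small pump regulator 1810037I17Rik was higher in icKO (1.23, SE 0.109, adjusted p = 8.78e-06), but the value was 0.67 under median-ratio scaling and not called.

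Asph, whose locus encodes junctin, a partner of triadin and calsequestrin, was the only one of 4 lumen genes called, at 47.4, 36.2 and 47.0 in Ctrl and 15.3, 19.1 and 17.6 in icKO (−1.32, SE 0.127, adjusted p = 1.47e-05). Reads of junctin and of the other proteins of this locus are not separated by a gene value. In the junction and membrane group, 1 of 6 tested genes was called lower. Bin1 also met the thresholds, as higher, and is not counted as a result for the reason given below. The shares over all genes tested were 8.45% lower and 28.0% higher. Cmya5, a dyad-associated protein, was at 142, 145 and 162 in Ctrl and at 33.1, 37.5 and 43.3 in icKO (−1.98, SE 0.107, adjusted p = 7.14e-07). Bin1, which shapes transverse tubules, was at 0.036, 0.134 and 0.167 in Ctrl, near the floor of 3 reads (0.071 to 0.0943), and at 2.54, 2.43 and 1.89 in icKO. It passed the RPKM filter through the icKO samples alone, so no test is given for it. Jph1, the relative of Jph2, overlapped between the groups (0.02, SE 0.167, adjusted p = 0.933).

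Of 11 cytosolic regulators of the release channel, 3 were lower and 4 higher at 4 weeks, beside 8.45% and 28.0% of all genes tested. Calm2 and Calm3 encode calmodulin, which binds and inhibits Ryr2, and both were called higher. Calm2 RPKM rose from 18.9, 18.4 and 20.7 to 86.8, 85.8 and 69.5 (2.05, SE 0.103, adjusted p = 5.18e-07). Under median-ratio scaling the value was 1.49, and Calm3 at 0.96 was short of a call. Camk2a and the kinase Speg, which acts on dyad proteins, were lower. Camk2b, also among the 3, passed the filter through the Ctrl samples and was not called with a pseudocount of 1 (−0.70). In the kinase and phosphatase group of 5 tested genes, Ppp1r3a, a targeting subunit of protein phosphatase 1, was lower (−1.42, SE 0.124, adjusted p = 8.10e-06) and Hax1, a Pln-binding protein, was higher (1.30, SE 0.144, adjusted p = 3.51e-05, but 0.74 and not called under median-ratio scaling). Stim1, the store sensor of the refilling pathway, was at 1.49, 1.53 and 1.98 RPKM in Ctrl and at 0.426, 0.480 and 0.602 in icKO. It passed the filter through the Ctrl samples alone, and its log2 value was −1.55 but −0.82 and not called with a pseudocount of 1. Its channel partner Orai1 was not called (0.20, SE 0.121, adjusted p = 0.159).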

How the data were processed

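Total RNA of E10.5 hearts and of isolated adult cardiomyocytes was sequenced after ribosomal RNA depletion. The authors deposited 1 table per stage with the RPKM of each sample for 20775 genes, made from reads mapped to GRCm38. The submitters' processing notes name cutadapt 2.6, STAR 2.5.3a, HOMER 4.11.1 and DESeq2 1.12.4 without a role. The annotation, strand setting and read total behind RPKM are not given in the sources used here. The tables also hold the authors' mean RPKM, log2 fold changes and FDR, which were not used. Depth was estimated as the read number at which low values lie nearest to whole reads, and 62.9 to 71.0% then lay within 0.1 of a whole read (20% by chance). The floor of 3 reads covers counting error only.

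Each stage was fitted with limma 3.58.1 (R 4.3.3) (lmFit, eBayes with trend) on log2(RPKM + 0.1), keeping genes whose RPKM averaged above 1, with Benjamini-Hochberg adjustment over all genes tested. The difference between stages was a contrast over 12 samples. With 3 samples against 3, the smallest two-sided p of an exact permutation test is 0.1. Fits were tested on simulated data. The 10 genes and the lists were chosen with earlier results of these data known. Named genes are these 10, Med30, the relatives of the 10, in each role up to 2 called genes with the largest change, and the 3 genes nearest to Ryr2 and to Atp2a2. Others (Calm3, Camk2a, Camk2b, Speg, Orai1) were named after their values were seen, and 1 gene that the rule selects is not reported here. Alternatives were 2 pseudocounts, 3 filters, 3 scalings, no trend, a replicate block and each replicate left out. Figures and tables were made with Python 3.11.15, pandas 2.3.3 and matplotlib 3.10.9.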

Additional observations from a re-analysis of the deposited data

Results flagged for a closer look

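For 4 genes the effect of the knockout differed between E10.5 hearts and adult cardiomyocytes by a contrast of all 12 samples (limma, Benjamini-Hochberg adjustment over 8909 genes). The difference of log2 fold changes, 4 weeks minus E10.5, was −2.43 for Atp2a2, −2.94 for Pln, −2.51 for Ryr2 and −2.32 for Hrc. Each icKO sample lay below each adult Ctrl sample for all 4 genes, as in 18.9% of all genes tested. At E10.5 this held for Atp2a2, Pln and Ryr2 (22.6% of all genes tested), and the groups overlapped for Hrc. The 4 genes were picked by the contrast on these same values. Stage, preparation, Cre driver, time since deletion and the condition of the heart differ together between the 2 comparisons.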

How the results depend on the processing

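The 4 genes called lower at 4 weeks, and Pln at E10.5, were called under all 10 other settings and with each replicate left out. Over the other settings at 4 weeks, the log2 fold change ranged from −3.55 to −2.29 for Atp2a2, from −5.12 to −4.48 for Pln, from −3.40 to −2.81 for Ryr2 and from −2.45 to −1.87 for Hrc. Of 249 values of single genes under other settings, 239 kept their direction and call, 6 gained a call and 4 changed sign. With a replicate left out, 192 of 198 did, 3 gained a call and 3 changed sign.

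The number of the 10 genes called higher at E10.5 was 1 (Casq2) in place of 0 under median-ratio scaling, quantile normalization and scaling that left out the 20 most abundant genes, with a range of 0 to 1 when a replicate was left out (1 without Ctrl replicate 1). Casq2 at 4 weeks was −0.14 under median-ratio scaling. Jph2 at E10.5, near 0, was 0.093 under median-ratio scaling, 0.12 under quantile normalization and 0.15 without the 20 most abundant genes, and ranged from −0.096 to 0.056 with a replicate left out (above 0 without Ctrl replicate 3 or cKO replicate 1). Fkbp1b at E10.5 ranged from −0.21 (without Ctrl replicate 3) to 0.88. Of the other calcium store genes at 4 weeks, 5 in place of 8 were lower with a pseudocount of 1 or a mean RPKM above 5 (Itpr2, Camk2b and Stim1 lost their call or were not tested), and 3 and 4 in place of 7 were higher under median-ratio scaling and quantile normalization. Both stricter settings act on low genes. For the rest the cause was not tested.

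Deviations of same-numbered Ctrl and knockout samples had low correlations (0.0124, 0.101 and −0.0698 at E10.5, 0.153, 0.0433 and 0.0450 at 4 weeks). At 4 weeks these were all positive and 0.153 was the largest of any pairing. Not every sample correlated best with its own number, as with Ctrl replicate 3 and icKO replicate 2 (0.0808). The numbers were not treated as pairs. With the replicate block, 1 of the 10 genes was lower at E10.5 and 4 at 4 weeks, as without it. Casq1 at 4 weeks then had an adjusted p of 0.0963 (limma) and was again not called. Depth limits Sln at both stages and Fkbp1b in adults, which lay near or under 3 reads.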
